A study of Mus musculus with 6 samples.

Results

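The lysosome genes described here are 36 mouse genes chosen by a list of symbols: 22 soluble hydrolases and their activators, 7 lysosomal membrane proteins, 5 subunits of the vacuolar proton pump (V-ATPase) and the 2 transcription factors Tfeb and Tfe3. All 36 were found among the 25006 genes of the count table, and all 36 were among the 12847 genes with enough counts to be tested. The libraries are bulk RNA sequencing of corneal epithelial sheets of mice, 3 labelled EphA2 null (EphA2-/-) and 3 labelled wild type. EphA2 is a receptor tyrosine kinase of the ephrin system that epithelial cells carry. Strain, age, sex and treatment are not stated in the labels, nor whether each library is a separate animal, so p-values measure the spread among these 6 libraries only, and that spread may be technical. The sample titles also carry numbers: EphA2 null 2 and 3 and wild type 3 have numbers in a higher range, and EphA2 null 1 and wild type 1 and 2 have numbers in a lower one. What these numbers stand for is not given; EphA2 null 2 and 3 share a number, as do wild type 1 and 2. Values of the higher-number libraries are listed below in the order EphA2 null 2, EphA2 null 3, wild type 3, and values of the lower-number libraries in the order EphA2 null 1, wild type 1, wild type 2.

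Lysosomes are acidic compartments in which soluble hydrolases break down proteins, lipids, glycans and nucleic acids that arrive by endocytosis and autophagy. The V-ATPase pumps protons into them, heavily glycosylated membrane proteins line them, and transporters in the membrane carry the breakdown products out. TFEB and its relative TFE3 are transcription factors that enter the nucleus when the kinase mTOR is inactive, for example in starved cells, and bind E-box sequences around the letters CACGTG in promoters of lysosomal and autophagy genes. Corneal epithelial cells are shed and replaced throughout life.

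The E-box core was looked for in the RefSeq promoter windows of build GRCm38.p6, from 250 bases before to 50 bases after each annotated start. A window was given for 31 of the 36 genes. CACGTG, which reads the same on both strands, was in a window of 14 of these 31 genes (45.2%), and in 8.09% of all 27025 genes with a window. The longer TCACGTG, which contains CACGTG, was on either strand in 13 of the 31 (41.9%), against 4.29% of all genes. A match is a description of the letters and not a measured binding site. The 150 bases before the start are shown for 5 genes, with CACGTG in capitals: Lamp1 for its 4 copies, Mcoln1 for its pair, and Gaa, Sgsh and Atp6v1a as genes with 1 copy each whose levels differed between the title number ranges in opposite directions. The starts are those of RefSeq; GENCODE places the start of Gaa, Sgsh, Mcoln1 and Atp6v1a further upstream, so part or all of those stretches lies inside its gene spans. The stretches are, in the order listed, chr8:13159011-13159160 (+), chr8:3500369-3500518 (+), chr11:119267813-119267962 (+), chr11:119355511-119355660 (-) and chr16:44139260-44139409 (-), each printed 5′ to 3′ on the strand of its gene.
Lamp1: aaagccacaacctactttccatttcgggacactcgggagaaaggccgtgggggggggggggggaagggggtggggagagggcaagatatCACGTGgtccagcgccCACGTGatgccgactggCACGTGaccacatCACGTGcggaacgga
Mcoln1: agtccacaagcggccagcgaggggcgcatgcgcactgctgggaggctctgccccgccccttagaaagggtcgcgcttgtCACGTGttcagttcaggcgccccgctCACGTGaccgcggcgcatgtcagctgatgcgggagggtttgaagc
Gaa: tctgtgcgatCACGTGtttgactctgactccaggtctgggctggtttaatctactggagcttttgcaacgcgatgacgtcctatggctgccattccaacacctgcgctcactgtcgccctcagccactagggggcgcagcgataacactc
Sgsh: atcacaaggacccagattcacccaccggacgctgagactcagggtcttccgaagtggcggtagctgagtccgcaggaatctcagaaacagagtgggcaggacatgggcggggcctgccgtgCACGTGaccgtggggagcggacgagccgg
Atp6v1a: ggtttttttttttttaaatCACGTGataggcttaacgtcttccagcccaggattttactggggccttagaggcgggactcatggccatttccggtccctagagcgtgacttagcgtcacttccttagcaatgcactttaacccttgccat

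Each library held 15308013 to 27586942 counts, and the 36 genes together took 5407 to 5899 CPM in each, where CPM scales the counts of a library to 1e+06 after TMM adjustment. The level of Epha2 did not follow the labels: it was 285, 653 and 578 CPM for libraries labelled EphA2 null 1 to 3, against 298, 253 and 563 CPM in wild type 1 to 3 (log2 fold change 0.44 ± 0.39 SE, adjusted p = 0.9996, edgeR). It followed the title numbers (1.07 ± 0.11, higher over lower, adjusted p = 0.00174), and with the range in the model its genotype difference was 0.09 ± 0.11. A count over the gene does not show whether the transcript is intact, so the genotype is given as labelled throughout. The libraries stood apart by title number: 44.7% of tested genes were called between the higher and lower numbers, at an adjusted p under 0.05 with genotype in the model. Marker lists of the epithelium and of other cells were counted in the same comparison. Of tested markers, 37.5% were called for corneal epithelium, 20% for conjunctiva and goblet cells, 66.7% for stroma and 69.2% for leukocytes. The first 2 shares are below the 44.7% of all tested genes. None was called among 3 melanocyte, 1 erythrocyte and 2 nerve markers. Krt12, the keratin of corneal epithelium, was at 13064 to 16025 CPM in every library. Of 8 corneal epithelium markers 3 were higher in the higher-number libraries (Cdh1 0.85, Aldh3a1 0.63 and Tkt 0.38 on the log2 scale) and 0 lower. Krt5 (0.30), Krt12 (0.24), Trp63 (0.20), Pax6 (0.01) and Krt14 (-0.29) were not called. Of 10 stromal markers Kera and Lum had 0 counts in all 6 libraries, and 3 were tested. Aldh1a1 (-1.26) and Vim (-1.94) were lower, and Pdgfra (0.29) was not called. The 10 summed to 90.6 to 137 CPM in the higher-number and 262 to 265 CPM in the lower-number libraries. Most of that sum was Aldh1a1 alone, at 108, 73.3 and 120 CPM in the higher-number and 250, 247 and 252 CPM in the lower-number libraries. The sum is therefore largely the value of 1 gene. Of 5 tested conjunctival and goblet cell markers 0 were higher and 1 lower, the mucin gene Muc5ac (-4.95), at 2.21, 1.68 and 0.675 CPM in the higher-number and 58.8, 38.5 and 5.24 CPM in the lower-number libraries. Of 19 leukocyte markers 13 were tested, and 0 were higher and 9 lower in the higher-number libraries. Itgam (0.06), Itgax (0.19), Cd68 (-0.09) and Ctss (-0.42) were not called. Without Itgam, which made up most of their sum, the other 18 markers summed to 38.9 to 48.8 CPM in the higher-number and 72.5 to 89.8 CPM in the lower-number libraries, and to 38.9 to 73.7 CPM in libraries labelled EphA2 null and 46.1 to 89.8 CPM in wild type. Cd68 and Ctss, which are also lysosomal genes, made up most of that sum in the higher-number libraries. The part of the cell types above in the values of the 36 genes was not tested. In such bulk samples, fewer cells of a type and less RNA per cell cannot be told apart.

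Per kilobase of exon, Ctsd was the most abundant of the 36 genes, at 314 CPM per kb over the 6 libraries. It encodes cathepsin D, an aspartic protease. Psap, the precursor of the saposins that help hydrolases reach sphingolipids, followed at 166 CPM per kb, the cysteine protease gene Ctsl at 156 and the membrane glycoprotein gene Lamp1 at 116. The V-ATPase accessory subunit gene Atp6ap1 (77.2 CPM per kb), Ctsb, which encodes cathepsin B (76.5), Lamp2 (65.9) and Atp6v1a, the catalytic subunit of the pump (53.1), came next. The 2 transcription factors were at the low end, with Tfe3 at 3.27 CPM per kb (26 in the order of the 36) and Tfeb at 2.26 (30 in that order). Cd63, a tetraspanin of late endosomes, was lowest at 0.516 CPM per kb, a level that only 11.2% of tested genes fell below. Its transcript matches the copy Cd63-ps over 812 of 1109 bases at 98.52% identity, so reads shared with that copy may be missing from its count. Length here is that of all exons merged, which can be far longer than the longest coding transcript. It was 3682 bases beside 1109 for Cd63, and 9552 beside 3604 for Lamp2. The lowest place of Cd63 and the place of Lamp2 in this order therefore depend on the length used.

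**Figure D1:**
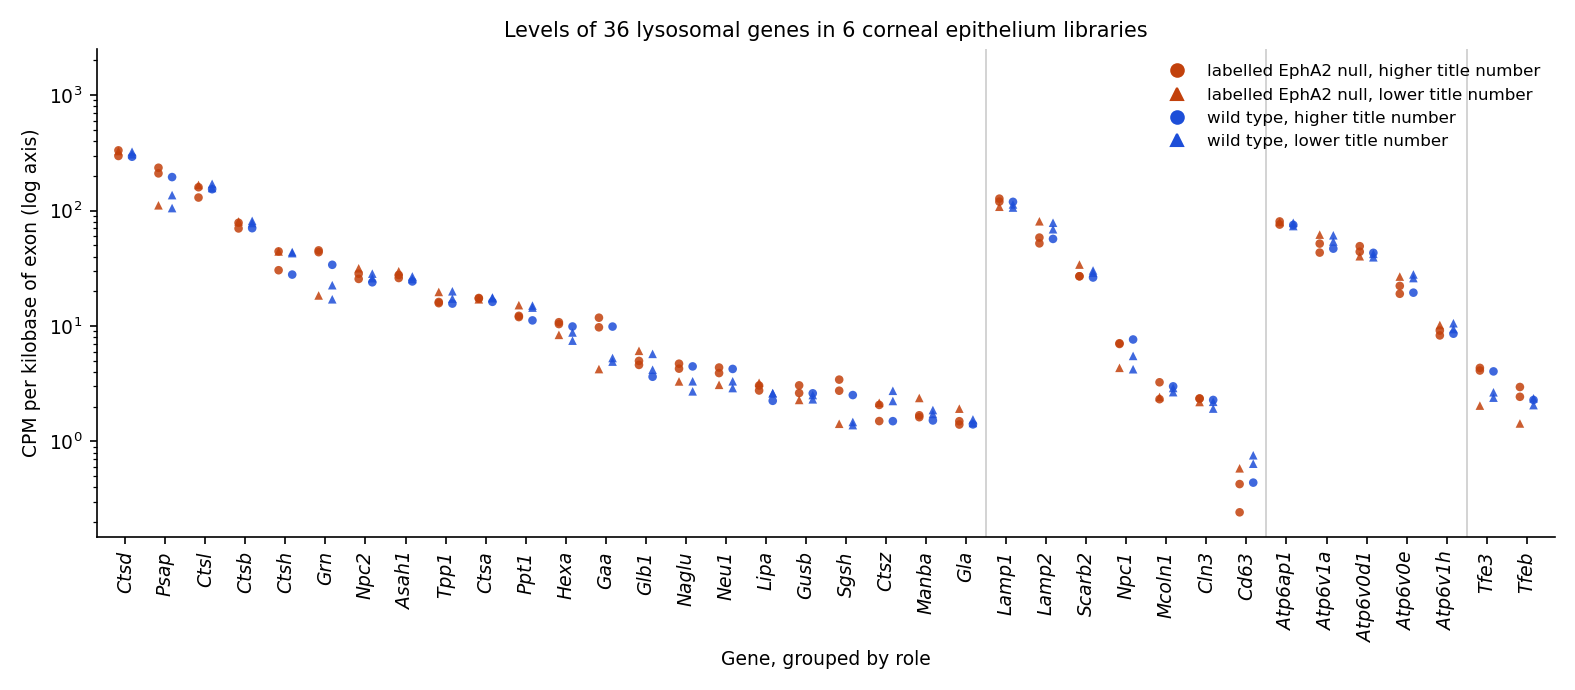
Level of each of the 36 genes in CPM per kilobase of exon on a log axis, grouped by role; each point is 1 library, libraries labelled EphA2 null stand left of wild type, and circles and triangles mark higher and lower title numbers. Levels run from 314 CPM per kb on average for Ctsd to 0.516 for Cd63.

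Between the genotypes, 0 of the 36 genes passed the test, against 0.00778% of all tested genes (1 of 12847). At an unadjusted p under 0.05 edgeR also called 0 of the 36, against 1.18% of tested genes. DESeq2 called 0 of the 36 at both thresholds, against 0.0272% of its 18385 tested genes with adjustment and 0.892% without. It was run without the count filter, so its tested genes include some with few counts. Log2 fold changes, libraries labelled EphA2 null over wild type, ran from -0.56 for Cd63 to 0.54 for Grn with a median of 0.08, beside 0.01 over all tested genes. The median SE was 0.18, which is larger than the size of most of these fold changes. With the title number range in the model the median SE was 0.12 and the median fold change 0.05; Cd63 was again lowest at -0.32, Glb1, the beta-galactosidase gene, was highest at 0.34, and Grn was at 0.14. Leaving out 1 library at a time moved Grn between 0.34 and 0.86 and Cd63 between -0.89 and -0.28 without the range in the model. In both models, for each of the 36 genes the edgeR adjusted p was 0.9996.

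The 3 abundant cathepsin genes lay close together in both genotypes. Ctsd was at 771, 782 and 699 CPM for libraries labelled EphA2 null 1 to 3, and at 761, 723 and 689 CPM in wild type 1 to 3. Ctsb was at 487, 475 and 424 CPM for libraries labelled EphA2 null 1 to 3, and at 493, 472 and 426 CPM in wild type 1 to 3. Ctsl was at 1083, 1035 and 842 CPM for libraries labelled EphA2 null 1 to 3, and at 1019, 1107 and 995 CPM in wild type 1 to 3. The genotypes overlapped for all 3 of these proteases, with log2 fold changes of 0.05 ± 0.12 for Ctsd, -0.01 ± 0.13 for Ctsb and -0.08 ± 0.14 for Ctsl (SE). Lamp1 was at 289, 340 and 320 CPM for libraries labelled EphA2 null 1 to 3, and at 303, 284 and 319 CPM in wild type 1 to 3. Mcoln1, the lysosomal cation channel, was at 18.3, 17.6 and 24.6 CPM for libraries labelled EphA2 null 1 to 3, and at 20.2, 22 and 22.7 CPM in wild type 1 to 3. Npc2, the soluble cholesterol carrier that hands its load to Npc1, was at 172, 155 and 139 CPM for libraries labelled EphA2 null 1 to 3, and at 141, 155 and 130 CPM in wild type 1 to 3. These 3 genes overlapped between the genotypes too. Cd63 had only 47, 32 and 24 counts in the libraries labelled EphA2 null 1 to 3 and 49, 48 and 24 counts in wild type 1 to 3, so its fold change of -0.56 ± 0.39 (SE) rests on few reads.

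Lipa, the acid lipase that frees cholesterol from its esters, was the 1 gene of the 36 whose genotypes did not overlap (2.78%, against 3.73% of all tested genes). It was at 21.9, 18.7 and 20.7 CPM for libraries labelled EphA2 null 1 to 3, and at 17.8, 17.7 and 15.3 CPM in wild type 1 to 3. The mean was 20.4 ± 1.58 CPM for EphA2 null libraries as labelled, against 16.9 ± 1.44 CPM for wild type (n = 3 each, ± SD). On the log2 scale the difference was 0.27 ± 0.15 (SE). It was 0.33 ± 0.11 once the range was in the model, with 0.37 inside the higher and 0.30 inside the lower numbers. In that model Lipa was also the 1 gene of the 36 with an unadjusted p under 0.05 in edgeR (adjusted p = 0.9996), against 3.87% of all tested genes. DESeq2 also put 1 of the 36 under that threshold, against 2.14% of its tested genes. After adjustment 0 of the 36 were called in that model by edgeR, against 0.00778%, and 0 by DESeq2, against 0.124%.

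Tfeb had the widest gap between its genotype differences in the 2 title number ranges. In the higher numbers it was at 13.8 and 16.8 CPM for libraries labelled EphA2 null 2 and 3, and at 13.0 CPM in wild type 3. In the lower numbers it was at 8.12 CPM in the library labelled EphA2 null 1, and at 13.4 and 11.7 CPM in wild type 1 and 2. The log2 fold change between genotypes was thus 0.24 within the higher and -0.63 within the lower numbers. The unadjusted edgeR p of the interaction was 0.020 and the adjusted p 0.999, and Tfeb was the 1 gene of the 36 with an unadjusted p under 0.05 (2.78%, against 4.71% of all tested genes). With adjustment edgeR called 0 of the 36 and 0% of all tested genes, while DESeq2 called 0 of the 36 at either threshold, against 0.0163% with adjustment and 1.85% without. The library labelled EphA2 null 1 was the lowest of the 6, and those labelled EphA2 null 2 and 3 were the highest.

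Between the title number ranges, 15 of the 36 genes passed the test (41.7%), against 44.7% of all tested genes. Of these, 8 were higher in the higher numbers (22.2%, against 24.6%) and 7 lower (19.4%, against 20.1%), so the share called was near that of genes in general in both directions. At an unadjusted p under 0.05 the count was 22 of the 36 (61.1%, against 53.7%). DESeq2 called 15 (41.7%, against 39.4% of the 13754 genes it adjusted). Without adjustment it put 20 under the threshold (55.6%, against 35.3% of 18389 genes). Those 18389 include genes with too few counts for the edgeR filter, which all 36 passed, so the 35.3% is not a like background. Without overlap were 23 of the 36 genes (63.9%, against 59% of all tested genes), 13 of them higher (36.1%, against 30.1%) and 10 lower (27.8%, against 28.8%). The median log2 fold change, higher over lower numbers, was -0.11 for the 36 genes and -0.01 for all tested genes, and the median size was 0.33 and 0.37. With upper quartile scaling, which moved the median of all genes to -0.13, 6 of the 36 were higher and 15 lower. Without the library labelled EphA2 null 1, 3 of the 36 were called (Gaa, Grn and Tfe3, all higher), and without wild type 3, 8 were.

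**Figure D2:**
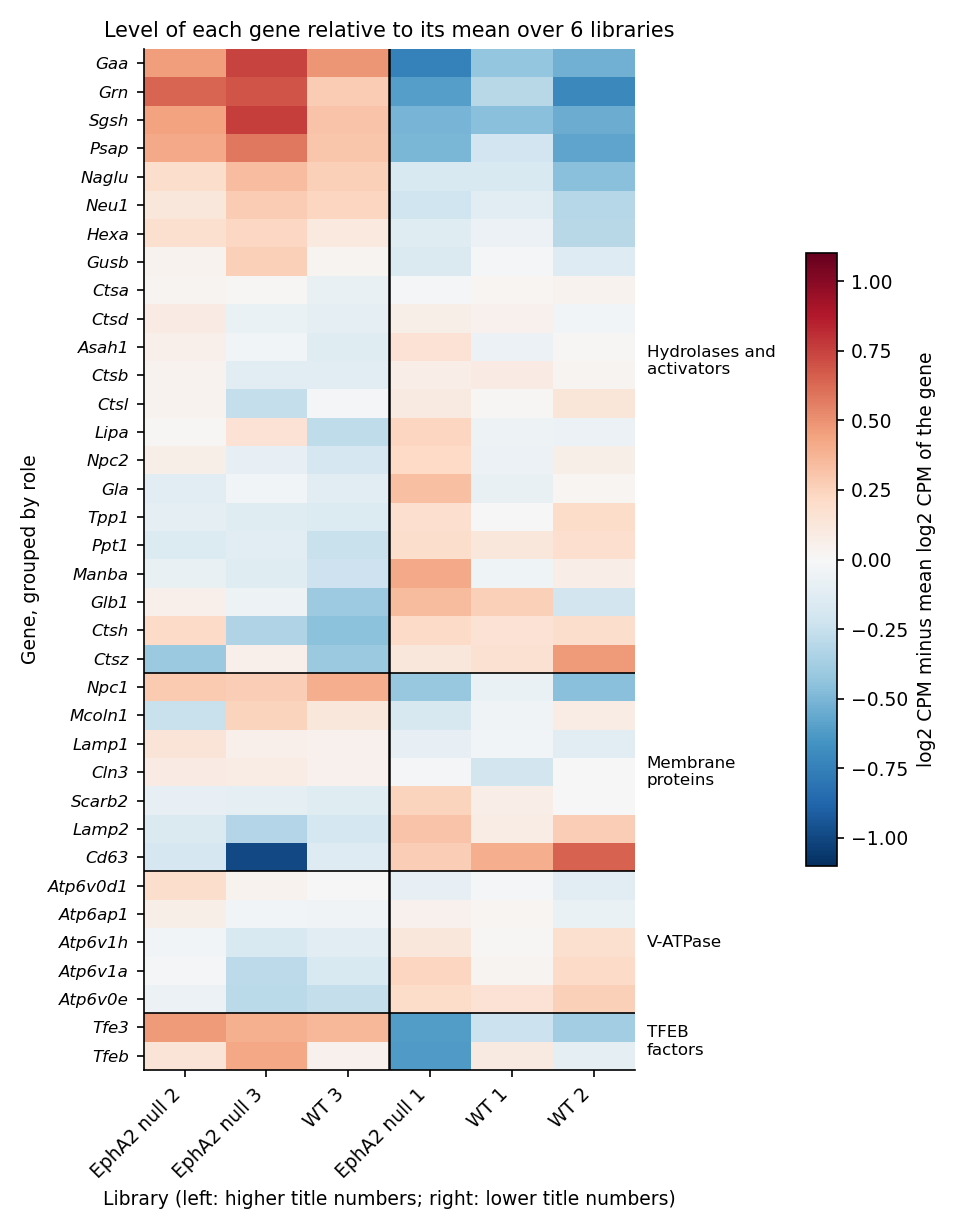
Log2 CPM of each gene minus its mean over the 6 libraries, as colour, with 1 column per library; the 3 higher-number libraries are left of the line and the 3 lower-number libraries right of it. Columns group by title number more than by genotype: Gaa, Grn, Sgsh, Psap, Npc1 and Tfe3 are red on the left, and Lamp2 and Atp6v0e are blue there.

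Of the transcription factors, Tfe3 was higher in the higher-number libraries and Tfeb did not pass. Tfe3 (GRCm38 chrX:7762560-7775202, + strand) was at 40.2, 38.1 and 37.5 CPM in the higher-number and 18.9, 24.7 and 22.2 CPM in the lower-number libraries. The ranges were well separated, with a mean of 38.6 ± 1.42 CPM in the higher-number and 21.9 ± 2.89 CPM in the lower-number libraries (n = 3 each, ± SD). The log2 fold change was 0.86 ± 0.12 (SE, adjusted p = 0.00228, edgeR), or 1.82-fold. Tfeb had a log2 fold change of 0.48 ± 0.21 (adjusted p = 0.0922); it was 0.92 within the libraries labelled EphA2 null and 0.04 within wild type.

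Of the 22 hydrolases and activators, 6 were higher, 3 lower and 13 not called, beside 24.6% of all tested genes higher and 20.1% lower. Gaa, the acid alpha-glucosidase that degrades glycogen (chr11:119267887-119285454, + strand), was at 46.6, 56.5 and 47.3 CPM in the higher-number and 20.3, 25.3 and 23.5 CPM in the lower-number libraries. Every higher-number library was well above every lower-number one, and the fold change of 2.22 (log2 1.15 ± 0.13 SE, adjusted p = 0.00178) was the largest of the 36. Grn, which encodes progranulin, a secreted and lysosomal precursor of granulins (chr11:102430315-102437048, + strand), was at 152, 157 and 118 CPM in the higher-number and 63.9, 78.5 and 59.2 CPM in the lower-number libraries. Wild type 3 was the lowest of its higher-number group but still above the other range (log2 fold change 1.02 ± 0.15, adjusted p = 0.00235). Sgsh, the sulfamidase of heparan sulfate breakdown (chr11:119343425-119355536, - strand), was at 12.2, 15.2 and 11.1 CPM in the higher-number and 6.28, 6.51 and 6.12 CPM in the lower-number libraries. Its lower-number libraries were nearly equal, and the ranges did not overlap (0.97 ± 0.16, adjusted p = 0.00313). Psap was at 577, 645 and 536 CPM in the higher-number and 305, 374 and 289 CPM in the lower-number libraries. That was again without overlap (0.85 ± 0.13, adjusted p = 0.00278). Naglu, another enzyme of heparan sulfate breakdown, rose by 0.50 ± 0.14 (adjusted p = 0.0223) and the sialidase Neu1 by 0.43 ± 0.13 (adjusted p = 0.0234) on the log2 scale; both lost the call with upper quartile scaling (0.38 and 0.31) and with the GC offset described below (0.06 and 0.09).

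The hydrolases that fell in the higher-number libraries changed less. Manba, which encodes beta-mannosidase, was at 11.8, 11.3 and 10.6 CPM in the higher-number and 16.6, 12.1 and 13.0 CPM in the lower-number libraries. The gap between the ranges was narrow at wild type 1 (log2 fold change -0.39 ± 0.13, adjusted p = 0.0363). Ppt1, which removes palmitate from proteins, was at 43.9, 45 and 41.1 CPM in the higher-number and 55.7, 53.1 and 55.2 CPM in the lower-number libraries. Both ranges were tight (-0.36 ± 0.09, adjusted p = 0.0124). Tpp1, a peptidase that releases tripeptides, was at 83.5, 81.5 and 80.8 CPM in the higher-number and 102, 89.2 and 103 CPM in the lower-number libraries. Here wild type 1 lay nearest to the other range (-0.28 ± 0.09, adjusted p = 0.0373). The cathepsins did not pass: Ctsd had -0.08 ± 0.10, Ctsb -0.15 ± 0.09, Ctsl -0.15 ± 0.11 and Ctsh, an aminopeptidase, -0.44 ± 0.16 (adjusted p = 0.0506). Npc2 had -0.21 ± 0.09 and Lipa -0.18 ± 0.11, also short of the threshold.

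Of the 7 membrane proteins, Npc1 was higher and Lamp2 and Scarb2 were lower in the higher-number libraries. Of all tested genes 24.6% were higher and 20.1% lower. Npc1, which exports cholesterol across the lysosomal membrane, was at 80.3, 79.1 and 86.6 CPM in the higher-number and 49.2, 62.4 and 47.8 CPM in the lower-number libraries. The ranges did not overlap, and the log2 fold change was 0.67 ± 0.12 (adjusted p = 0.00348). Lamp2, a main glycoprotein of the lysosomal membrane (chrX:38401357-38456454, - strand), was at 558, 497 and 543 CPM in the higher-number and 772, 659 and 750 CPM in the lower-number libraries. All 3 higher-number libraries were lower, and its -0.46 ± 0.11 (adjusted p = 0.00942) was the largest fall past the threshold among the 36. Scarb2, the receptor that brings glucocerebrosidase to lysosomes, was at 170, 170 and 166 CPM in the higher-number and 214, 190 and 182 CPM in the lower-number libraries. This was the smallest called change (-0.25 ± 0.08, adjusted p = 0.0391), and the call was lost whenever any 1 of the 6 libraries was left out. Lamp1 had 0.15 ± 0.09, Mcoln1 0.16 ± 0.15 and Cd63 -0.75 ± 0.30 (adjusted p = 0.0742), none past the threshold.

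Of the 5 V-ATPase genes, 0 were higher and 2 lower, beside 24.6% of all tested genes higher and 20.1% lower. With only 5 genes, no direction of the pump as a whole can be read from this. Atp6v0e, a small subunit of the membrane sector, was at 82.7, 70.7 and 72.2 CPM in the higher-number and 99.6, 96.7 and 104 CPM in the lower-number libraries. It did not overlap between the ranges (-0.42 ± 0.10, adjusted p = 0.0098). Atp6v1a was at 313, 262 and 283 CPM in the higher-number and 374, 326 and 369 CPM in the lower-number libraries. EphA2 null 2 came close to wild type 1 across the ranges (-0.34 ± 0.11, adjusted p = 0.0307).

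**Figure D3:**
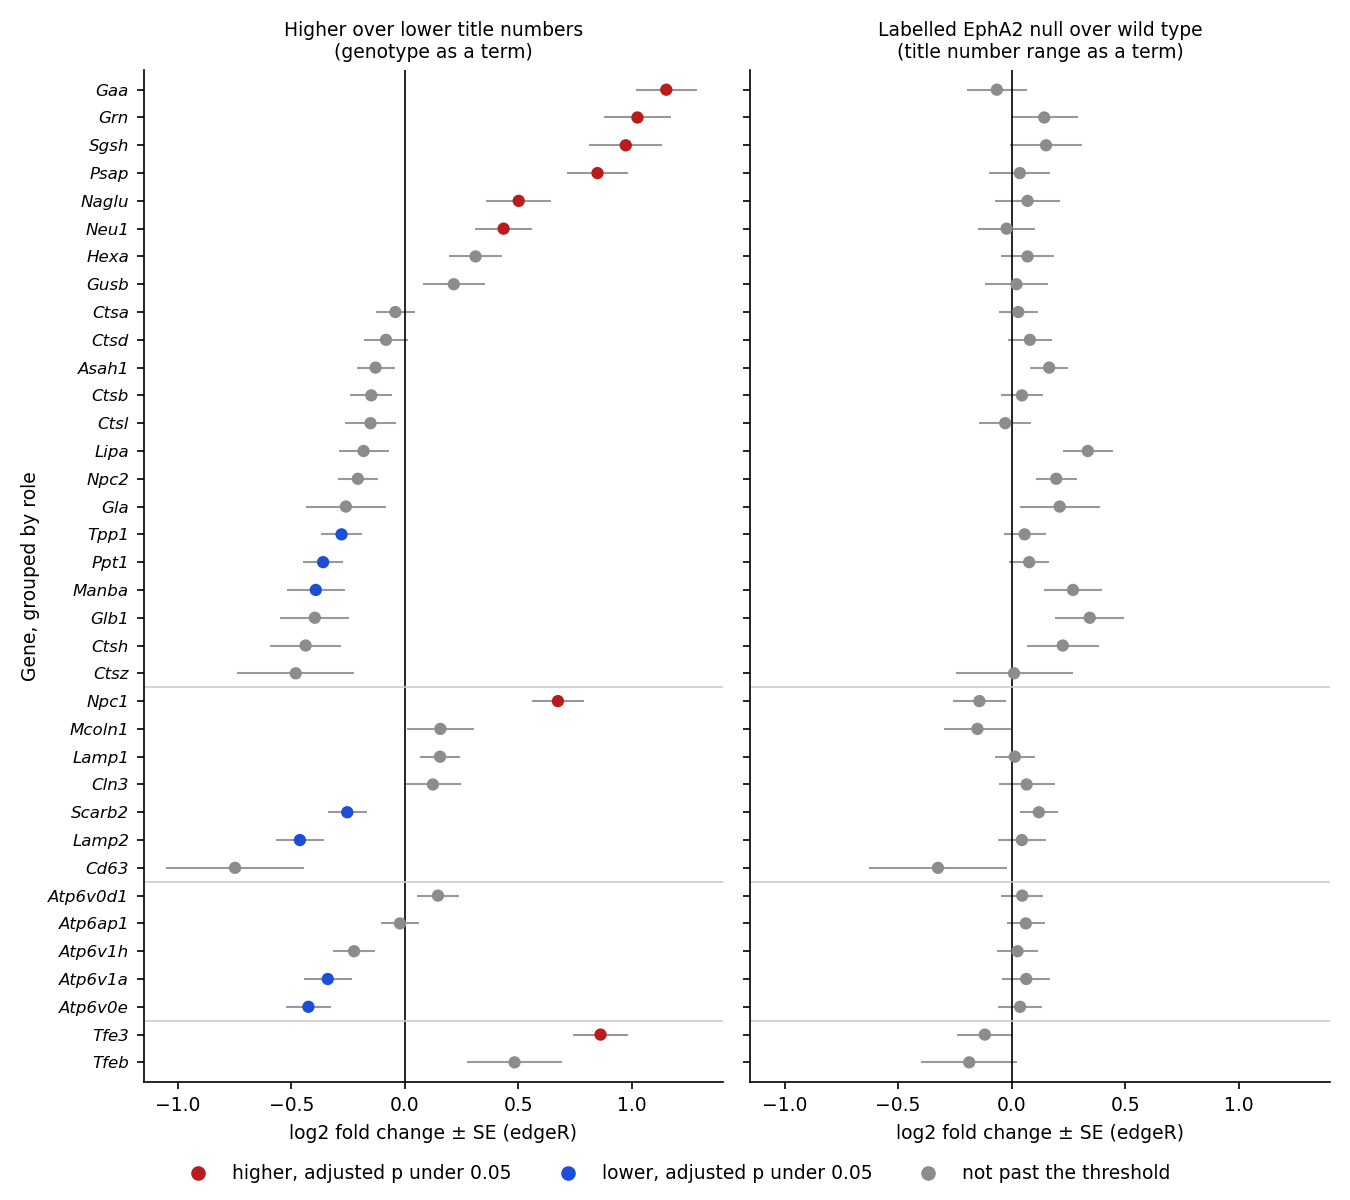
Log2 fold change with its SE from edgeR for each gene, higher over lower title numbers on the left and libraries labelled EphA2 null over wild type on the right, both with the other factor in the model. On the left 8 genes are past the threshold upward and 7 downward; on the right none is.

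The E-box was found among genes of both directions: CACGTG was in a promoter window of 3 of the 7 higher genes that have one, 2 of the 7 lower genes and 9 of the 17 genes that were not called. Gaa and Atp6v1a, printed above with 1 copy each, differed in opposite directions, and Lamp1, with 4 copies, was not called. Position was uneven. All 4 of the genes on chromosome 11 (Gaa, Grn, Sgsh and Naglu) were called higher, and 29.9% of the 1064 tested genes of that chromosome were. Their transcripts had a GC content of 56.1% to 59.8%. Of the 4 genes on chromosome 8, 0 were called higher and 0 lower, against 26.1% and 17.3% of its 694 tested genes. Gaa and Sgsh lie 58.0 kb apart.

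The direction did go with base composition. Transcript GC content was 50.2% to 59.8% for the 8 higher genes (median 56.7%) and 38.7% to 48.2% for the 7 lower genes (median 44.98%), with no overlap; over all tested genes the medians were 54.2% for those called higher and 45.4% for those called lower. Over the 36 genes, GC content and log2 fold change between the ranges had a Pearson r of 0.65 and a Spearman rho of 0.64, and over 12841 tested genes 0.44 and 0.48; genes of one set of libraries are not independent replicates. Transcript length, on the log2 scale, followed less closely, with r of 0.20 over the 36 genes and 0.25 over all tested genes. With a GC offset fitted for each library, 13 of the 36 were called (36.1%, against 35.9% of all tested genes), and 7 of the 15 were among them. Gaa (0.72 ± 0.10), Grn (0.72 ± 0.13), Sgsh (0.66 ± 0.14), Npc1 (0.62 ± 0.11), Psap (0.61 ± 0.12) and Tfe3 (0.51 ± 0.11) stayed past the threshold upward and Manba (-0.36 ± 0.12) downward. Lamp2, at 38.7% the lowest in GC, went to -0.07 ± 0.09, and Ctsd, Ctsa, Ctsh, Ctsz, Glb1 and Npc2 passed downward. The part of GC content in these differences was not tested beyond this offset.

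**Figure D4:**
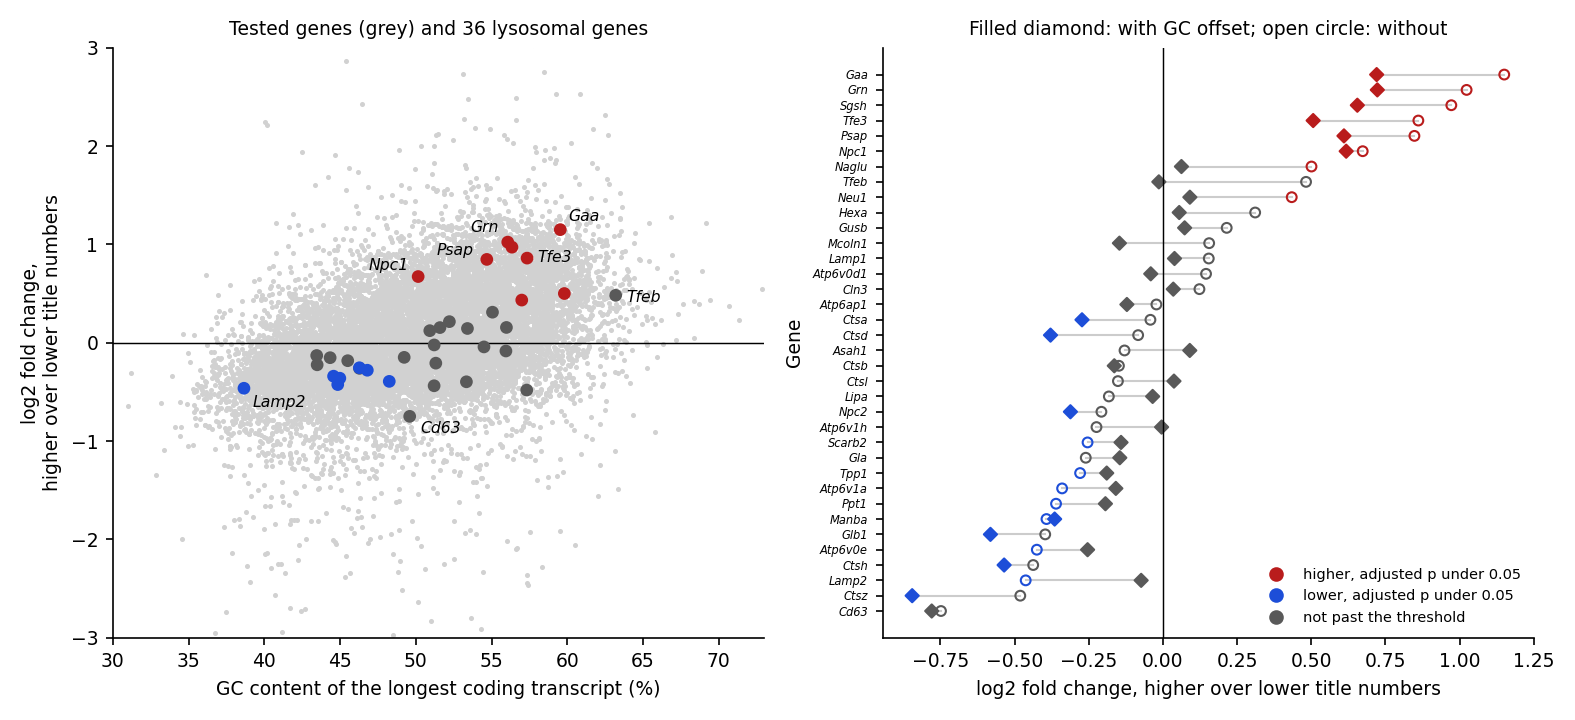
Left, log2 fold change of higher over lower title numbers against transcript GC content for tested genes within 3 log2 units (grey; 19 lie outside) and the 36 lysosome genes (coloured by call). Right, each gene without (open circle) and with (filled diamond) a GC offset; Lamp2 moves from -0.46 to -0.07, and Gaa stays called at 0.72.

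Other genes of the pathway were counted in the same way, 131 in all, of which 122 were tested. None passed between the genotypes. Without the range in the model, the smallest unadjusted edgeR p-values belonged to Litaf, a membrane protein of late endosomes (log2 fold change 0.35, adjusted p = 0.9996), and Ids, the iduronate sulfatase (0.32, adjusted p = 0.9996). With it, the smallest belonged to Ulk1, a kinase that starts autophagy, which was lower (-0.31 ± 0.10, adjusted p = 0.9996). Between the title number ranges 32 were higher and 24 lower (45.9%, against 44.7% of all tested genes), with a median of -0.03. Among 37 other hydrolases, 7 were higher and 7 lower (37.8%). The glycosaminoglycan enzyme gene Idua (0.64), the sulfatase gene Arsa (0.67) and the mannosidase gene Man2b1 (0.55) rose on the log2 scale. The nuclease gene Dnase2a (-0.51), the protease gene Lgmn (-0.51), Ggh (-0.45) and Ctbs (-0.38) fell. Among 21 tested membrane proteins 5 were higher, led by the cation channel gene Tpcn1 (1.18) and Abcb9 (0.95), Sidt2 (0.83) and Abca2 (0.81), and 6 were lower (52.4% in all), among them Tmem175 (-0.57), Tmem106b (-0.43) and Mfsd8 (-0.43). The largest fall was that of Laptm5 (-2.02), which is also one of the leukocyte markers counted above.

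Of 13 other tested V-ATPase subunits, Atp6v0a1 (0.79) and Tcirg1 (0.28) were higher, and 4 were lower: Atp6v1f (-0.46), Atp6v1g1 (-0.44), Atp6v1d (-0.39) and Atp6v1e1 (-0.32); 46.2% were called. Of 20 genes that sort enzymes to lysosomes, 8 were higher and 3 lower (55%). Those highest in fold change were the sorting receptor gene Sort1 (0.93), Vps18 (0.75), Ap3d1 (0.69) and Gnptab (0.67), which starts the mannose phosphate tag. The 3 lower were Vps41 (-0.46), Vps39 (-0.32) and Ap1m2 (-0.26). Of 21 tested relatives and regulators of TFEB, 7 were higher and 4 lower (52.4%). The kinase gene Mtor (0.82), its inhibitor Tsc2 (0.85), Fnip2 (0.95) and Rragd (0.97), a GTPase that recruits TFEB to lysosomes, rose. Lamtor5 (-0.44), Lamtor4 (-0.43) and Lamtor1 (-0.28), which anchor those GTPases, and Zkscan3 (-0.40), a repressor of the pathway, fell. The relative Tfec had 0 counts in all 6 libraries, and Mitf was at 0.82 to 1.61 CPM. Of 12 genes known as TFEB targets, most of them autophagy genes, 4 were higher and 0 lower: Ulk1 (0.87), Vps18 (0.75), Uvrag (0.61) and Wipi1 (0.61). That is 33.3%, below the 44.7% of all tested genes, and Vps18 also stands among the sorting genes.

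Several of the 36 genes share exon sequence with a neighbour. The widest such overlap in the count table was Sgsh with Card14 on the opposite strand, over 955 bases; Card14 itself had a log2 fold change between the ranges of 0.79 (adjusted p = 0.0185). Ctsb overlaps Fdft1 by 774 bases and Npc1 overlaps Rmc1 by 511, and neither neighbour passed (0.02 and -0.24). Ctsd overlaps the read-through gene Gm49369 by 808 bases on the same strand. The strand setting of the counting is not given in the sources used here, so reads in these stretches cannot be told apart.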

How the data were processed

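Gene counts were deposited as 1 table of whole-number raw counts per Ensembl gene for 6 libraries, per the file headers; for the aligner, counter, strand setting, build and annotation the authors used, the answer is "not given in the sources used here". Per the series design text, sequencing of miRNeasy-extracted total RNA was on a HiSeq instrument. The table held 0 columns of other samples, and every pair of libraries differed by more than sampling noise (lowest chi-square per degree of freedom 10.6). Symbols, positions, exon lengths and GC content came from GENCODE M21 on GRCm38, and promoters from RefSeq on GRCm38.p6.

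Genes were filtered with filterByExpr, scaled with TMM and tested with edgeR 4.0.16 (glmQLFit, glmQLFTest) in R 4.3.3 for genotype, for title number range with genotype as a term, and for their interaction. Calls were made at a Benjamini-Hochberg adjusted p under 0.05 over all 12847 tested genes. SEs were derived from the log2 fold change and its F statistic (their ratio after taking the root of F). CPM use TMM-scaled totals; CPM per kb divide by the length of all exons merged, and GC content is that of the longest coding transcript. Alternatives were DESeq2 1.42.0, voom in limma 3.58.1, and other scaling, filters, a threshold of 0.1, summed libraries, other terms and each library left out. DESeq2 was run on every gene with any count, without filterByExpr. The GC offset is a lowess trend (span 0.3) of each library's log2 deviation on GC content. Copies were searched with blastn 2.17.0 (at least 90% identity over at least 30% of the transcript). The scripts were checked on simulated data.

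The 36 genes, the title number comparison and all lists were chosen with earlier results of these data known. Values in every library were set for 16 of the genes by name, for any gene called between genotypes, and for up to 6 rises and 6 falls of largest size between the ranges. In each other list up to 4 called genes per direction were named; 1 gene that this rule names is not reported here.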

Additional observations from a re-analysis of the deposited data

How the results depend on the processing

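Between genotypes, 0 of the 36 genes were called under each of the 17 alternatives run. Of all genes, edgeR called 1, DESeq2 5, DESeq2 with the range in its model 17 (added after seeing the data), and edgeR after summing libraries that share a title number 0; leaving out each library in turn gave 1 to 1. For the interaction edgeR called 0 genes and DESeq2 3, with 0 of the 36 in both. Between the title number ranges, 15 of the 36 were called, and 13 to 22 under the alternatives that kept all libraries. Leaving out each library gave 3 to 15 of the 36 and 1103 to 5803 of all genes, against 5740: without the library labelled EphA2 null 1 they were 3 and 1103, without wild type 3 they were 8 and 3702, and without wild type 2 they were 10 and 3549. With a GC and length offset, chosen like the GC offset after seeing the data, 3272 of all genes and 13 of the 36 were called. Upper quartile scaling called 2480 genes higher and 3797 lower, against 3154 and 2586. Manba and Tpp1 each lost the call without any 1 of 5 libraries.

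Signs turned for small genotype fold changes. That of Tfeb (0.03) was -0.0215 with upper quartile factors, -0.0305 with voom, -0.12 with summed libraries, -0.19 with the range in the model in edgeR and in DESeq2, and -0.0150 with the GC offset. Tfe3 (0.21) went to -0.0797 summed and to -0.12 with the range in the model in both tools. Lamp1 (0.07) went to -0.00048 summed, and Lamp2 (-0.10) to 0.0478 summed, 0.0448 with the range in the model and 0.0467 with it in DESeq2. Leaving out a library gave -0.21 to 0.27 for Tfeb and -0.31 to 0.0297 for Lamp2. Between the ranges, the GC offset turned Tfeb (0.48) to -0.0136, Ctsl (-0.15) to 0.0374 and Mcoln1 (0.16) to -0.15. The cause was not tested in any of these.

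No paired analysis was possible because the labels give no replicate numbers shared between the groups; the title number range entered as a term instead, and letters in the titles, whose meaning is not given, were not used. The few counts of Cd63 (24 to 49 per library) limit its value. The median SE of the genotype fold changes of the 36 genes was 0.18 without and 0.12 with the range in the model.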
